A study of Mus musculus with 8 samples.

Results

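A set of 10 genes of the transforming growth factor beta (TGF-beta) pathway was followed through the cell types of the mouse liver: the ligands Tgfb1, Tgfb2, Tgfb3, Inhba and Bmp2, the receptors Tgfbr1, Tgfbr2 and Tgfbr3, the intracellular inhibitor Smad7 and the matrix gene Tgfbi. They were taken by symbol, and 10 of the 55450 genes in the matrix matched, each in 1 row. Liver cells came from 8 wild-type C57BL/6 mice, each a separate droplet library of mRNA 3' ends (10x Chromium), in which every captured mRNA carries a unique molecular identifier (UMI). The control group was 2 mice on a normal diet with drinking water. The HFD+F+CCl4 group was 3 mice given a high-fat diet, a fructose solution and intraperitoneal CCl4, and the WD+F+CCl4 group was 3 mice given a western diet with the same solution and injections. The control mice had neither the fructose solution nor CCl4, so diet, sugar and toxin cannot be told apart in the comparisons with control. All livers were dissociated with collagenase and papain, and the cells are those that withstood this step.

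TGF-beta ligands are secreted dimers. TGF-beta itself is released bound to a latency peptide, is freed by integrins that contain the alpha v chain or by thrombospondin, binds the type II receptor Tgfbr2, which recruits and phosphorylates the type I receptor Tgfbr1, and acts through SMAD proteins. Tgfbr3, or betaglycan, is a coreceptor that presents ligand, Smad7 is induced by the pathway and blocks the type I receptor, and Tgfbi encodes a secreted matrix protein induced by TGF-beta. Inhba encodes the beta A chain of activin A, and Bmp2 a bone morphogenetic protein that in the liver is made by endothelial cells and acts on hepatocytes to raise hepcidin. In fibrosis TGF-beta drives hepatic stellate cells to become collagen-producing myofibroblasts.

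The upstream sequences are shown for 3 of the ligands, which differed in how evenly they were spread. The median level of Tgfb1 was above 50 CPM (UMIs per 1000000 UMIs) in every cell type, and those of Tgfb2 and Inhba were under 5 CPM in all but 3 and 4 types. Whether the sequences bear on this spread was not tested. Each is the 250 bases before the annotated start in RefSeq GRCm38.p6, written 5′ to 3′ on the strand of the gene, with capitals on matches to known motifs. The TATA box was searched as TATAAA. The box bound by the factor NF-Y was searched as CCAAT. The GC box bound by factors of the Sp family was searched as GGGCGG. A short motif bound by SMAD proteins was searched as CAGAC. All were searched on both strands, so that a capital stretch can be the motif or its reverse complement, and no 2 matches overlapped.
Tgfb1, chr7:25686752-25687001, plus strand: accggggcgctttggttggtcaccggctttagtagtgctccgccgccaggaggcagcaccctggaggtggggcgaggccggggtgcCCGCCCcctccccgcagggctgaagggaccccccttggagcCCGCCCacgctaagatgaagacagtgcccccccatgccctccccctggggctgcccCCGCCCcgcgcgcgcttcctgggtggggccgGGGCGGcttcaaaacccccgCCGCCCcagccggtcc
Tgfb2, chr1:186705990-186706239, minus strand: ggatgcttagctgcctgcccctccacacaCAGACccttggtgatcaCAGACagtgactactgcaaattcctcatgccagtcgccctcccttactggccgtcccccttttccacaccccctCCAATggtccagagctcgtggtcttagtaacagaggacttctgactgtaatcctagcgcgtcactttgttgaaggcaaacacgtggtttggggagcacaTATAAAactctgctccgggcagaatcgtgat
Inhba, chr13:16011601-16011850, plus strand: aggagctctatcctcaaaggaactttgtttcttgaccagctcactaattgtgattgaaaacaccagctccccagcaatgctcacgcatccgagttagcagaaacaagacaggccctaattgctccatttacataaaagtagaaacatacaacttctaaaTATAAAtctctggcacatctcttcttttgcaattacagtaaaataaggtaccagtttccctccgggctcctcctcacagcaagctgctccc
The Tgfb1 window had 75.2% G and C bases, 21 CpG dinucleotides and 5 GC boxes, and no TATA box. The Tgfb2 window had 53.6% G and C, 8 CpG dinucleotides, a TATA box at position -31 counted back from the start, 1 CCAAT box and 2 copies of CAGAC, and it overlaps an exon of the non-coding gene Gm29491. The Inhba window had 43.2% G and C, 3 CpG dinucleotides and a TATA box at position -91. Over the 32807 promoters in the same table the median was 52.4% G and C and 6 CpG dinucleotides, and 12.4% held TATAAA, 33.8% CCAAT, 32.7% GGGCGG and 42.2% CAGAC. The AP-1 motif TGANTCA, held by 6.8% of promoters, was in none of the 3 windows. Of the 10 genes, 6 were in the promoter table. These matches describe the letters and were not tested for binding.

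Of the 88581 barcodes, 80474 had more than 500 genes and under 25% mitochondrial UMIs and were kept. Control replicate 1 gave 10788 kept cells and control replicate 2 only 4168, while each NASH mouse gave between 9846 and 11999. The control libraries held 36699315 and 6135827 UMIs and the NASH libraries 46275590 to 64855024, so both control libraries were shallower than every NASH library and control replicate 2 gives the least precise values. Between 1.69% and 2.40% of the kept barcodes of a library also occurred in another library. Cells fell into 41 clusters, of which 28 clusters with 67917 cells took 1 of 17 names from marker genes, and 12557 cells stayed unnamed. Of the unnamed cells, 2540 came from control replicate 1 and 2350 from control replicate 2, against 854 to 1953 from each NASH mouse. Cluster 7, unnamed, held 1518 and 2022 control cells and 1 cell of HFD+F+CCl4 replicate 2, at a median of 1068 UMIs. The 10 genes and the pathway lists below were kept out of the clustering, and Bmp2, an endothelial marker in the study, was not used for names. HFD+F+CCl4 replicate 1 stood apart: 7 immediate early and heat shock genes, which rise in handled cells, summed to 3985 CPM in its kept cells against 361 to 1456 in the other mice. Levels are UMIs of a gene per 1000000 UMIs of all genes (CPM) in 1 mouse and 1 cell type, shown for mice with at least 20 such cells. The kit counts 3' ends, so a level does not scale with transcript length, and levels were compared within a gene only.

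**Figure D1:**
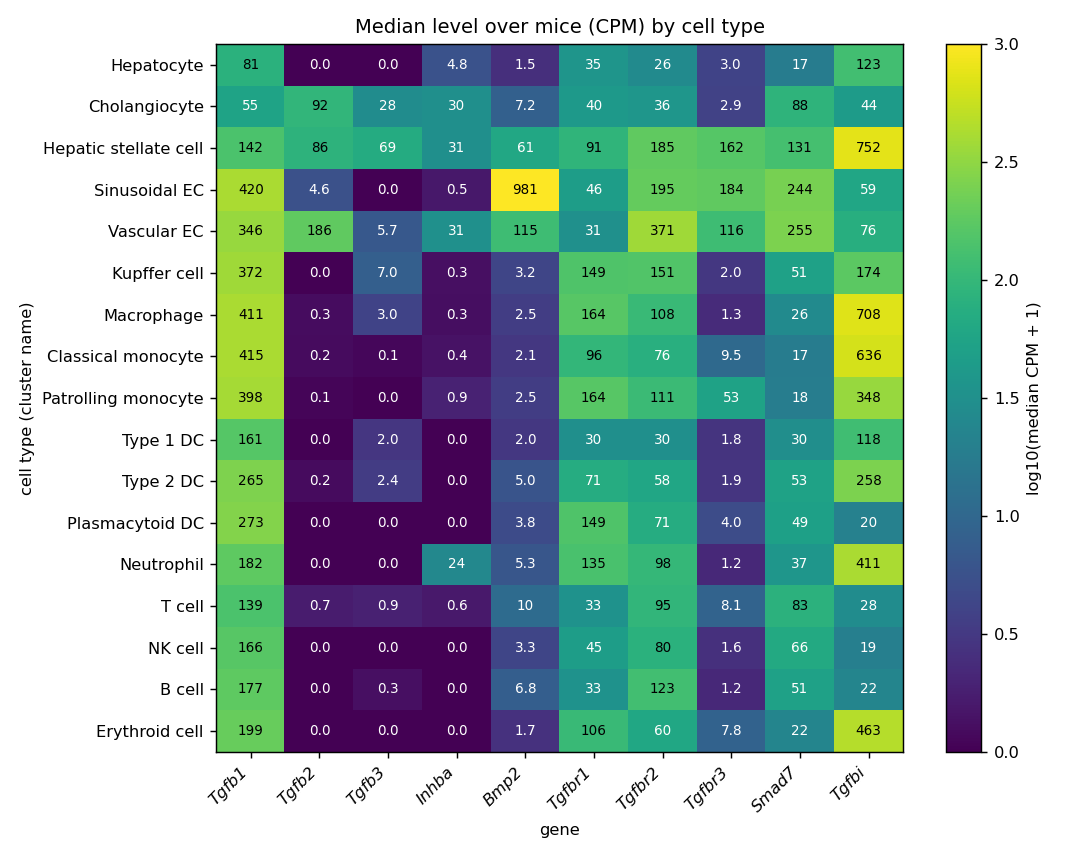
Median level over the mice (CPM) of each gene (columns) in the 17 named cell types (rows), with color on a log10 scale of the median plus 1. Tgfb1 is above 50 CPM in every row, Tgfb2 passes 50 CPM only in vascular endothelial, cholangiocyte and stellate rows, and Bmp2 peaks at 981 CPM in the sinusoidal endothelial row.

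Tgfb1 was found in all 17 cell types, and no 2 neighbours in their order differed beyond their range over mice. Its median was highest in sinusoidal endothelial cell-like cells, where it was 420.1 CPM (range 129 to 571, n = 5), followed by classical monocyte-like cells at 415 CPM (206 to 560.2, n = 8), macrophage-like cells at 411 CPM (349.8 to 482, n = 6), patrolling monocyte-like cells at 398 CPM (n = 7), Kupffer cell-like cells at 372 CPM (n = 5) and vascular endothelial cell-like cells at 346 CPM (n = 6). It was lowest in cholangiocyte-like cells, at a median of 54.7 CPM. By amount rather than level, macrophage-like cells held 28.9% of its 118269 UMIs and classical monocyte-like cells 16.8%. The rank of the endothelial cells depends on the cells taken: naming each cell by its own markers put patrolling monocyte-like cells first at 436 CPM, and removing cells with high doublet scores put classical monocyte-like cells first at 419 CPM.

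Tgfb2, the isoform best known from development and epithelium, was far narrower. Its median was 186 CPM in vascular endothelial cell-like cells (115 to 208, n = 6), 92.4 CPM in cholangiocyte-like cells (20.1 to 124, n = 7) and 85.8 CPM in the 2 stellate pools, while the next type, sinusoidal endothelial cell-like cells, had 4.6 CPM (0 to 8.5, n = 5) and did not overlap with the stellate values. The 2 endothelial populations did not overlap in Tgfb2, with 115 CPM as the lowest vascular and 8.5 CPM as the highest sinusoidal value. Cholangiocyte-like cells held 49.4% of the 1373 Tgfb2 UMIs, vascular endothelial cell-like cells 26.7% and stellate-like cells 11.3%. Naming by cell lowered the vascular median to 84.1 CPM.

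Tgfb3 and Inhba, the activin chain, had few UMIs, 990 and 940 in all. Tgfb3 was 108 CPM in the stellate-like cells of HFD+F+CCl4 replicate 1 and 30.5 CPM in those of replicate 2, and its median in cholangiocyte-like cells was 27.7 CPM (19.5 to 50.1, n = 7). No other type exceeded a median of 7.0 CPM, which was that of Kupffer cell-like cells, and the cholangiocyte and Kupffer ranges did not overlap. The vascular endothelial range, 0 to 32.9 CPM at a median of 5.7 CPM, did overlap with that of cholangiocyte-like cells. Inhba had medians of 30.9 CPM in vascular endothelial, 30.5 in stellate, 30.5 in cholangiocyte and 24.4 in neutrophil-like cells, with ranges that overlapped. In vascular endothelial cell-like cells it ran from 0 in control replicate 1 to 175 CPM in WD+F+CCl4 replicate 3. Within neutrophil-like cells Inhba was higher in cluster 37, whose cells carry the granule genes Camp, Ngp and Ltf of immature neutrophils. Its level there was 75.4, 95.7 and 98.1 CPM in the WD+F+CCl4 mice and 90.4 CPM in 1 HFD+F+CCl4 mouse. The other mice had fewer than 20 cells in cluster 37. In the larger cluster 4 Inhba was 2.3 to 17.5 CPM over 7 mice.

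**Figure D2:**
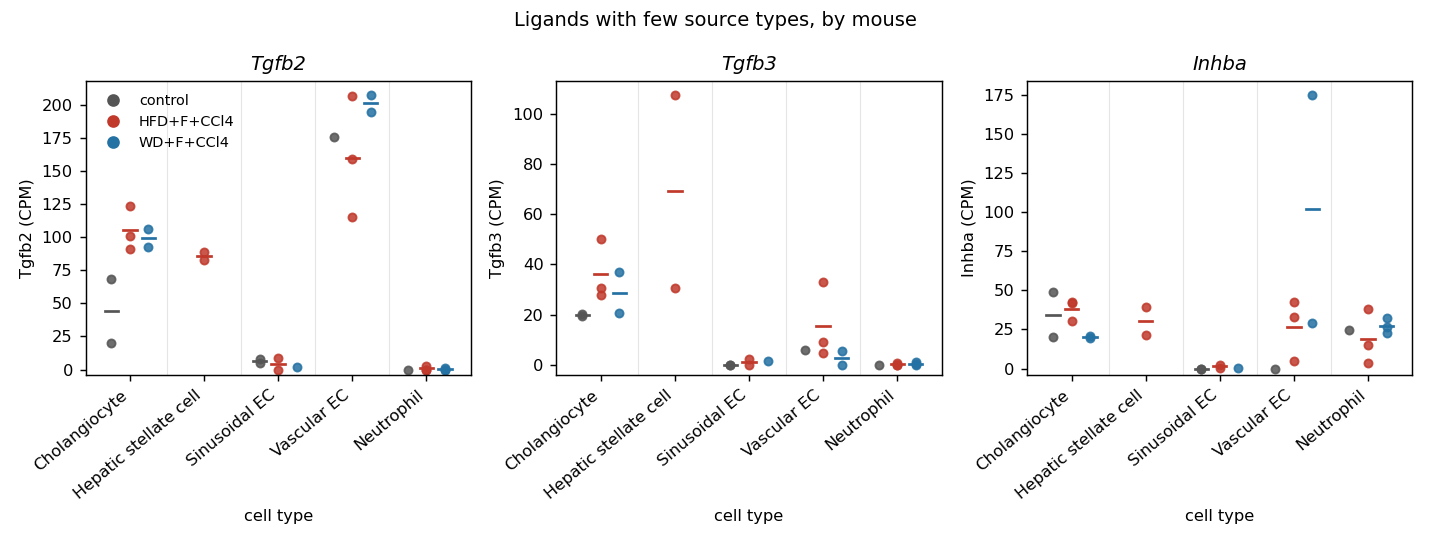
Level (CPM) of Tgfb2, Tgfb3 and Inhba in each mouse (points) and the group mean (bars) in 5 cell types, colored by group. Tgfb2 separates vascular (115 to 208 CPM) from sinusoidal endothelial cells (0 to 8.5 CPM), and the stellate column holds 2 HFD+F+CCl4 mice only.

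Bmp2 was the most restricted by amount, with 82.2% of its 16436 UMIs in sinusoidal endothelial cell-like cells. There it had 1602 and 981 CPM in the control mice, 841 and 798 CPM in HFD+F+CCl4 replicates 1 and 2, and 1031 CPM in WD+F+CCl4 replicate 3. The lowest of these was above the highest vascular endothelial value, 213 CPM. The vascular endothelial median was 115 CPM, and every type after it had a median of at most 61.2 CPM, that of stellate-like cells.

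Stellate-like cells, the target of TGF-beta in fibrosis, were few: 245 cells, of which HFD+F+CCl4 replicate 1 gave 158, HFD+F+CCl4 replicate 2 gave 38 and no other mouse reached 20, so no group could be compared. All 9 stellate markers were detected in both pools. The 2 pools differed in another lining cell: mesothelial markers summed to 0.85 CPM in replicate 1 and 500 CPM in replicate 2, and their part in the stellate values was not tested. In replicates 1 and 2 respectively the receptors Tgfbr1, Tgfbr2 and Tgfbr3 had 117 and 65.3 CPM, 226 and 144 CPM, and 155 and 170 CPM, Smad7 had 188 and 74.0 CPM, and Tgfbi had 547 and 957 CPM. Removing cells with high doublet scores, 40% of this cluster, left no stellate level to report.

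The receptors followed different cells. Tgfbr2 had its highest median in vascular endothelial cell-like cells, 371 CPM (296 to 489.5, n = 6), above the highest sinusoidal value of 231 CPM. Tgfbr3 was highest in sinusoidal endothelial cell-like cells at 184 CPM (144.5 to 205, n = 5), then 162 CPM in stellate-like and 116 CPM in vascular endothelial cell-like cells. Outside these it reached a median of 52.7 CPM in patrolling monocyte-like cells (42.7 to 70.6, n = 7) and 9.5 CPM in classical monocyte-like cells (4.5 to 12.9, n = 8), without overlap, which set the 2 monocyte populations apart. Tgfbr1 ran the other way, with medians of 164 CPM in macrophage-like and in patrolling monocyte-like cells, 149 CPM in plasmacytoid dendritic and in Kupffer cell-like cells, and a median of 31.0 CPM in vascular endothelial cell-like cells. Smad7 was highest in the same endothelial cells as Tgfbr2, at 255 CPM in vascular (130.1 to 376, n = 6) and 244 CPM in sinusoidal endothelial cell-like cells (114 to 253, n = 5). Tgfbi had medians of 708 CPM in macrophage-like cells (471 to 992, n = 6), 636 CPM in classical monocyte-like cells (465 to 739.9, n = 8) and 411 CPM in neutrophil-like cells, and 27.7 CPM in T cell-like cells.

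For each gene the most similar profiles over the 17 cell types were found by Pearson correlation of log2(mean CPM + 1), given as a description because types share libraries and clustering. Rbms3 (r = 0.987) and Fmo2 (0.979) were nearest to Tgfb2, Prr15 (0.927) and Cx3cl1 (0.905) to Tgfb3, and Hunk (0.923) and Plscr2 (0.895) to Inhba. The nearest to Bmp2 were Gm49265 (0.978) and Twist1 (0.974). Herc1 (0.921) was nearest to Tgfbr2, Cadm3 and Art3 (both 0.919) to Tgfbr3, Ttc28 (0.940) to Smad7, Tnfrsf21 (0.895) to Tgfbi, and Dclre1c (0.839) to Tgfbr1. For Tgfb1 the nearest were Ostm1 (0.882) and Abcg1 (0.881).

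The question of the group comparisons was how these levels differ between NASH mice with fibrosis and control mice, and between the 2 models. UMIs were summed per mouse and cell type and compared with edgeR's quasi-likelihood test, with Benjamini-Hochberg adjustment over all genes tested in that type and a threshold of 0.05. HFD+F+CCl4 could be compared with control in 9 types and WD+F+CCl4 in 8. Of 61 tests of the 10 genes, 8 passed in HFD+F+CCl4, 7 higher and 1 lower, where 3.23% of all tests in these types passed, and of 54 tests 7 passed in WD+F+CCl4, 5 higher and 2 lower, where 5.85% passed. Tgfb1 made up 6 and 4 of these. Both models were set against the same 2 control mice, so their calls are not independent.

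Tgfb1 was higher than in control in both models in classical monocyte-like, plasmacytoid dendritic cell-like, T cell-like and NK cell-like cells, and in HFD+F+CCl4 also in sinusoidal endothelial cell-like and type 1 dendritic cell-like cells. These types come from the same mice, so their calls are not independent. By point estimate the log2 fold changes of these calls ran from 0.72 in plasmacytoid dendritic cell-like cells of WD+F+CCl4 to 1.57 in sinusoidal endothelial cell-like cells of HFD+F+CCl4. The plasmacytoid values leave out HFD+F+CCl4 replicate 1, which had 19 such cells. Whether the rise differed between types could not be decided, as given below. In sinusoidal endothelial cell-like cells Tgfb1 was 194 and 129 CPM in the control mice and 571 and 420.1 CPM in HFD+F+CCl4 replicates 1 and 2, and the groups did not overlap. The log2 fold change was 1.57 ± 0.350 (SE, adjusted p = 0.0392), in a type where 2.23% of genes passed. Without HFD+F+CCl4 replicate 1 the change was 1.29 and did not pass (adjusted p = 0.488), in a fit that leaves 1 mouse in the group and takes its spread from the other groups, and without replicate 2 it was 1.89 and passed (adjusted p = 0.0302). The 1 WD+F+CCl4 mouse with enough of these cells, replicate 3, had 420.3 CPM and entered no test against control.

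In classical monocyte-like cells Tgfb1 was 269 and 206 CPM in control, 560.2, 429 and 538 CPM in HFD+F+CCl4 and 400.4, 465 and 380.1 CPM in WD+F+CCl4, with every NASH mouse above both control mice. The log2 fold changes were 1.06 ± 0.223 (adjusted p = 0.0176) and 0.78 ± 0.221 (adjusted p = 0.0460), where 8.23% and 10.9% of genes passed. These cells were a cluster mostly of NASH mice, cluster 1, and a cluster mostly of control mice, cluster 29. Mup3 and Serpina3k, genes of hepatocytes, were among the 10 leading genes of cluster 29. The part of hepatocyte RNA in the control values was not tested. In the first, cluster 1, the only control mouse with 20 cells had 319 CPM against 432 to 561 CPM in HFD+F+CCl4 and 380.0 to 465 CPM in WD+F+CCl4, and in the second, cluster 29, the control mice had 217 and 259.7 CPM and 1 HFD+F+CCl4 mouse had 309.9 CPM.

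In T cell-like cells, which receive TGF-beta as a signal that restrains them, Tgfb1 was 90.2 and 74.7 CPM in control, 256, 159 and 161 CPM in HFD+F+CCl4 and 139, 138 and 134 CPM in WD+F+CCl4, again without overlap. The changes were 1.22 ± 0.230 (adjusted p = 0.0244) and 0.91 ± 0.228 (adjusted p = 0.0466), where 3.57% and 6% of genes passed. The difference was present within clusters 6 and 14, where both control mice had at least 20 cells. In cluster 6 the control mice had 75.3 and 95.9 CPM, the HFD+F+CCl4 mice 145 to 243 CPM and the WD+F+CCl4 mice 151 to 173 CPM. In cluster 14 these were 53.3 and 61.1 CPM, 101 to 221 CPM and 84.4 to 122 CPM. In the other T cell clusters, 10, 24 and 27, control replicate 2 had 6, 3 and 6 cells, and their levels are not given. NK cell-like cells had 91.1 and 55.8 CPM in control, 206, 176 and 169 CPM in HFD+F+CCl4 and 151, 185 and 162 CPM in WD+F+CCl4, with changes of 1.20 ± 0.259 (adjusted p = 0.0117) and 1.16 ± 0.257 (adjusted p = 0.0101), where 3.09% and 7.28% of genes passed. The NASH mice lay above both control mice here too.

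Among dendritic cells, Tgfb1 in type 1 dendritic cell-like cells was 93.7 and 92.5 CPM in control, 239, 161 and 182 CPM in HFD+F+CCl4 and 152, 168 and 161 CPM in WD+F+CCl4, and only the first change passed, at 0.97 ± 0.198 (adjusted p = 0.0147, 4.27% of genes), while that in WD+F+CCl4 was 0.74 (adjusted p = 0.0526, 5.36%). In plasmacytoid dendritic cell-like cells it was 192 and 155 CPM in control, 348 and 340.1 CPM in HFD+F+CCl4 replicates 2 and 3 and 259, 273 and 278 CPM in WD+F+CCl4, with changes of 0.95 ± 0.192 (adjusted p = 0.0164, 3.09%) and 0.72 ± 0.177 (adjusted p = 0.0213, 7.9%). Type 2 dendritic cell-like cells had 181 and 66.1 CPM in control and 258 to 298 CPM in the 6 NASH mice, and the changes of 0.87 and 0.91 did not pass (adjusted p = 0.161 and 0.0973, with 1.45% and 4.55% of genes passing). B cell-like cells (0.84 and 0.67, with 1.57% and 4.05% of genes passing) and cholangiocyte-like cells (2.13 and 3.00, with 0.582% and 0.61%) did not pass either. In cholangiocyte-like cells the control mice had 16.3 and 0 CPM and the HFD+F+CCl4 mice 54.7, 62.6 and 59.0 CPM.

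**Figure D3:**
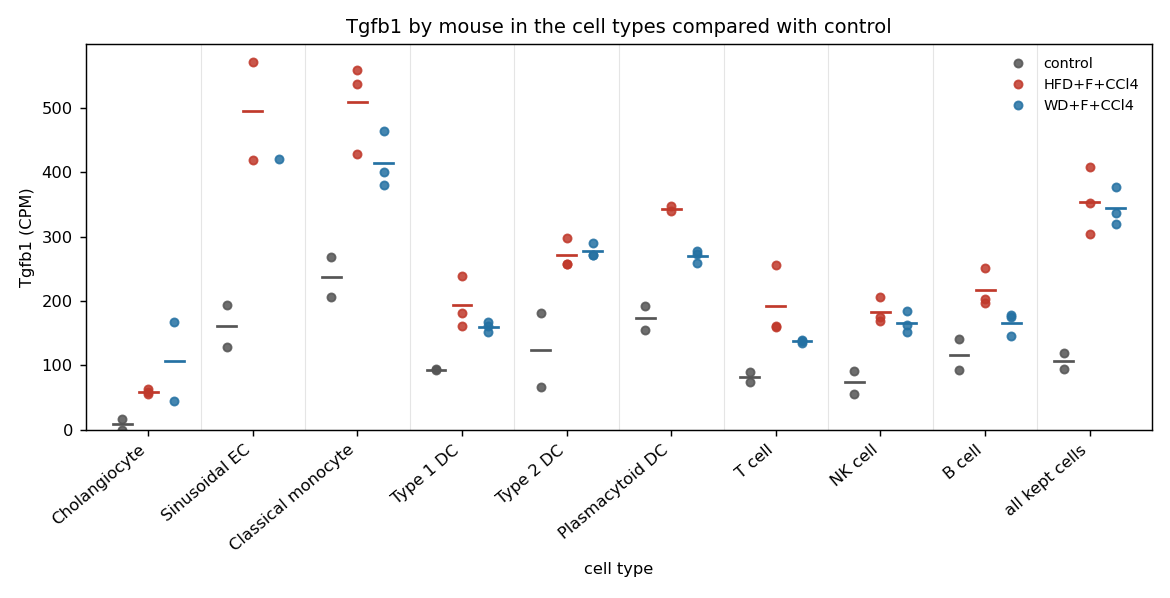
Tgfb1 level (CPM) in each mouse (points) and the group mean (bars) for the 9 cell types that could be compared with control, colored by group. In T cell-like cells the NASH mice lie at 134 CPM or more and the control mice at 90.2 CPM or less.

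Macrophage markers were also higher in T cell-like and sinusoidal endothelial cell-like cells of most NASH mice. They are given here for these types, and for B cell-like cells with Tgfbi below. In T cell-like cells their order over the mice was not that of Tgfb1. The 8 macrophage markers summed to 533 and 622 CPM in the T cell-like cells of control mice, to 6016, 2912 and 1057 CPM in HFD+F+CCl4 and to 526, 850 and 2105 CPM in WD+F+CCl4, against 32584 to 59256 CPM in macrophage-like cells, and none of the 8 was at 0. In sinusoidal endothelial cell-like cells they were 3105 and 2007 CPM in control, with 2 of the 8 at 0 in control replicate 2. They were 14923 and 8531 CPM in HFD+F+CCl4 replicates 1 and 2 and 6927 CPM in WD+F+CCl4 replicate 3. The order of these sums was that of Tgfb1, apart from HFD+F+CCl4 replicate 2 and WD+F+CCl4 replicate 3, whose Tgfb1 levels were nearly equal. In WD+F+CCl4 replicate 1 the T cell-like sum, 526 CPM, was below that of both control mice, and in every other NASH mouse it was above both. HFD+F+CCl4 replicate 1, the mouse with the high immediate early genes, had the highest Tgfb1 of its group over all kept cells. The same held in every type where Tgfb1 was called in HFD+F+CCl4 and this mouse had enough cells. Without this mouse the change in T cell-like cells was 1.00 (edgeR adjusted p = 0.0224). Leaving out HFD+F+CCl4 replicate 2 or 3 instead gave 1.33 and 1.32, which did not pass (adjusted p = 0.0538 and 0.0501). Leaving out control replicate 1 or 2, which leaves 1 control mouse, gave 1.49 and 1.02. In sinusoidal endothelial cell-like cells the change without HFD+F+CCl4 replicate 1 was 1.29, as given above. The parts of macrophage RNA, of hepatocyte RNA and of handling in the Tgfb1 calls were not tested. Of the 15 calls within a type, leaving out 1 mouse at a time ended each one at least once, most often leaving out control replicate 2 (12 calls) or control replicate 1 (8 calls), and none changed direction.

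Whether Tgfb1 changed more in one type than in another was asked with exact two-sided permutation tests over mice, on the difference of log2(CPM + 1) between 2 types of a mouse, for pairs in which a gene was called in 1 type and not in the other. None of the 18 pairs for Tgfb1 passed this exact test (lowest p = 0.0714, adjusted p = 0.452 over 38 pairs of 3 genes). It doubles the smaller of the p-values of the 2 tails, so with at most 28 ways to divide the mice it could not go below 0.0714. An exact permutation test of the absolute difference, added after the data were seen, can reach 0.0357, and 5 of the 18 pairs had an unadjusted p under 0.05 by it and 0 an adjusted one (lowest adjusted p = 0.259). In 4 of the 5 pairs the rise was smaller in classical monocyte-like, type 1 dendritic cell-like, T cell-like or NK cell-like cells than in cholangiocyte-like cells, where the 2 control values rest on 5 and 0 Tgfb1 UMIs, and in the fifth it was larger in NK cell-like than in B cell-like cells. After adjustment over the 38 pairs neither test could go under 0.05 with so few mice, even with every pair at its smallest p. The tests therefore cannot decide whether the rise differed between types.

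**Figure D4:**
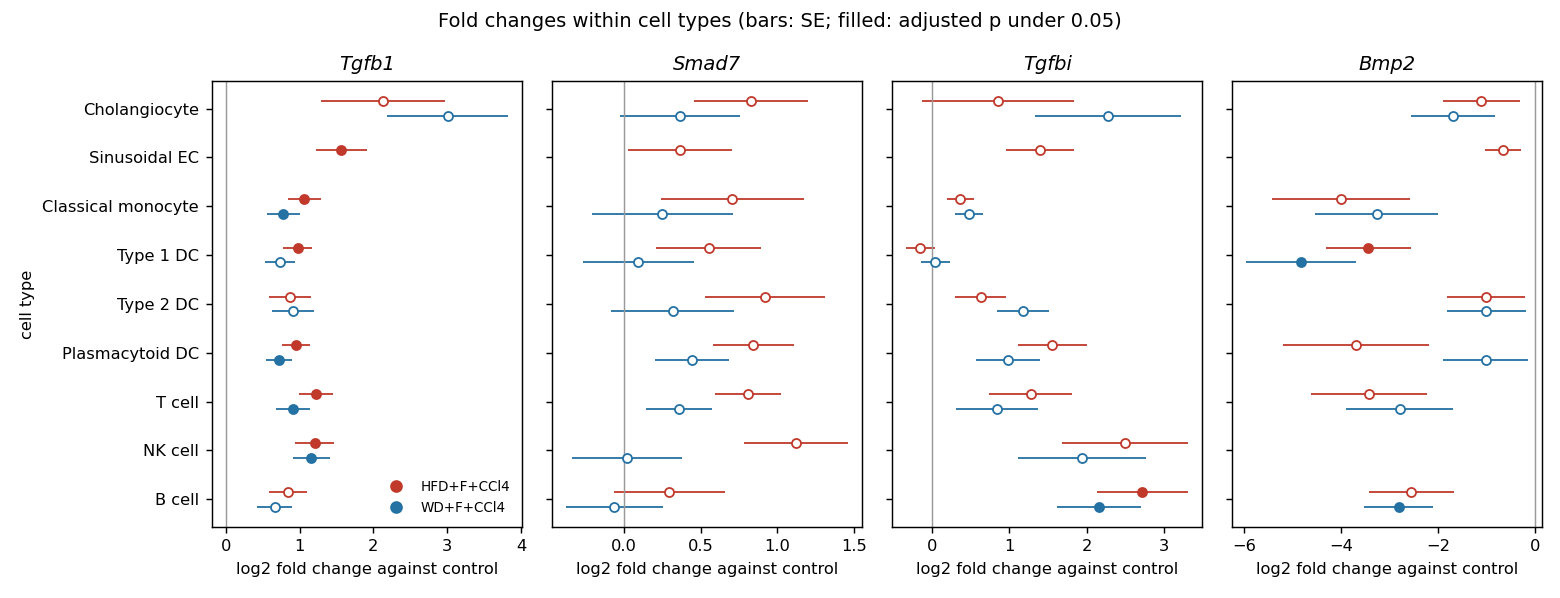
Log2 fold change against control (points) with its SE (bars) for Tgfb1, Smad7, Tgfbi and Bmp2 in each cell type compared, in red for HFD+F+CCl4 and blue for WD+F+CCl4, filled where the adjusted p was under 0.05. All 17 Tgfb1 points lie above 0, and Smad7 has no filled point. The cell types come from the same mice, so the points are not independent.

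Of the other ligands, Tgfb2, Tgfb3 and Inhba were high enough to be tested against control in cholangiocyte-like cells, and Tgfb3 also in type 2 dendritic cell-like cells. Tgfb2 in cholangiocyte-like cells was 68.4 and 20.1 CPM in control, 124, 91.5 and 101 CPM in HFD+F+CCl4 and 92.4 and 106 CPM in WD+F+CCl4 replicates 2 and 3. The groups did not overlap, but the changes of 0.92 ± 0.382 and 0.88 ± 0.398 did not pass (adjusted p = 0.475 and 0.445). Inhba in the same cells was 48.8 and 20.1 CPM in control and 19.8 to 42.5 CPM in the NASH mice, with overlap.

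Bmp2 in sinusoidal endothelial cell-like cells lay below both control mice in both HFD+F+CCl4 mice, with a change of -0.67 ± 0.368 that did not pass (adjusted p = 0.474). The Bmp2 calls lay outside the endothelium. In type 1 dendritic cell-like cells it was 16.0 and 29.9 CPM in control, 7.6, 1.9 and 0.3 CPM in HFD+F+CCl4 and 0, 0 and 2.2 CPM in WD+F+CCl4, with changes of -3.44 ± 0.873 (adjusted p = 0.0445) and -4.83 ± 1.13 (adjusted p = 0.0283). The WD+F+CCl4 value rests on 2 UMIs against 37 in control, a pooled ratio of 0.0362 (exact 95% interval of the counting error 0.00423 to 0.14). In B cell-like cells it was 28.1 and 56.3 CPM in control and 0.5, 2.9 and 13.7 CPM in WD+F+CCl4, a change of -2.82 ± 0.711 (adjusted p = 0.0332).

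These Bmp2 values moved with a gene of another cell. Stab2, a scavenger receptor of the sinusoidal endothelium, was 19.7 and 59.9 CPM in the type 1 dendritic cell-like cells of control mice, 6.1, 3.1 and 0.3 CPM in HFD+F+CCl4 and 0, 0 and 8.7 CPM in WD+F+CCl4. The summed level of the 8 sinusoidal endothelial markers in those cells was 137 and 357 CPM in control, 118, 29.5 and 4.2 CPM in HFD+F+CCl4 and 4.5, 4.3 and 78.4 CPM in WD+F+CCl4, with 6 of the 8 at 0 in WD+F+CCl4 replicates 1 and 2. In sinusoidal endothelial cell-like cells there were 0.743 to 0.988 Bmp2 UMIs per Stab2 UMI, in type 1 dendritic cell-like cells 0.5 to 0.8125, in T cell-like cells 0.497 to 1.06 and in B cell-like cells 0.367 to 0.603, where Stab2 had at least 10 UMIs. The ratio was 1.56 to 1.65 in vascular endothelial cell-like cells and at most 0.127 in Kupffer cell-like cells, which have Stab2 UMIs with little Bmp2. The part of free endothelial RNA in the Bmp2 calls was not tested.

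**Figure D5:**
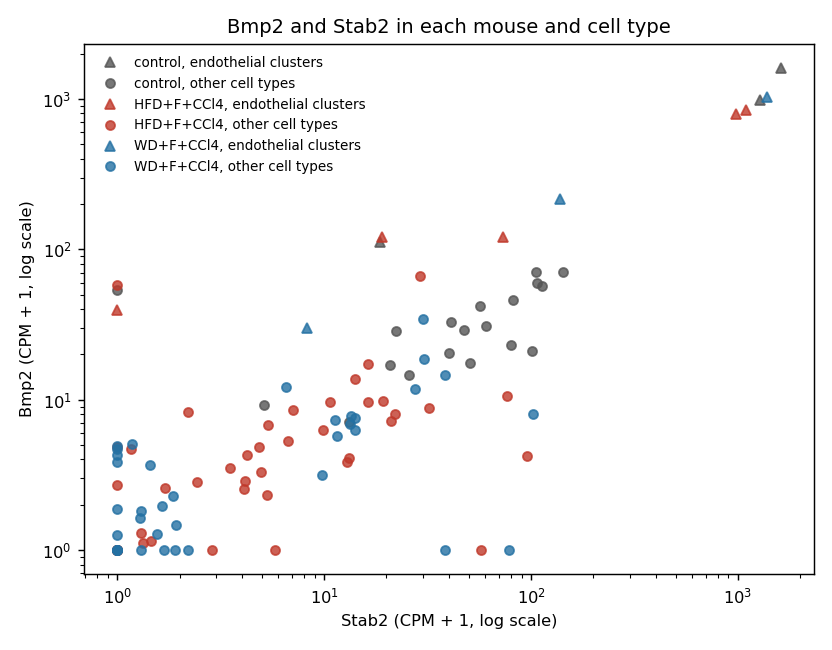
Bmp2 against Stab2 (CPM + 1, both axes on a log scale) in the 110 pools of a mouse and a cell type with at least 20 cells, with triangles for endothelial clusters and circles for other types, colored by group. The 5 sinusoidal endothelial pools lie at 798 CPM of Bmp2 or more, and pools of other types with more Stab2 mostly have more Bmp2.

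The receptors were not called in any of the types that could be compared with control. Macrophage-like, patrolling monocyte-like, Kupffer cell-like, neutrophil-like and vascular endothelial cell-like cells had no such test. Tgfbr1 had its highest median in macrophage-like cells and Tgfbr2 in vascular endothelial cell-like cells. Tgfbr1 had fold changes between -0.08 and 0.97 in HFD+F+CCl4 and between -0.53 and 0.89 in WD+F+CCl4. The lowest adjusted p for Tgfbr2 was 0.0755, in type 2 dendritic cell-like cells of WD+F+CCl4, where it was 32.9 and 49.6 CPM in control and 61.0, 68.6 and 71.8 CPM in WD+F+CCl4 (change 1.00 ± 0.289). Tgfbr3 in T cell-like cells was 12.5 and 21.2 CPM in control and 8.6, 3.0 and 2.6 CPM in HFD+F+CCl4, a change of -1.93 ± 0.540 (adjusted p = 0.0769). Both sets of values were without overlap, and neither passed.

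Smad7 was also not called in the types compared, which leave out vascular endothelial cell-like cells, where its median was highest. The change of Smad7 in HFD+F+CCl4 was positive in 9 of 9 types, from 0.29 to 1.12, with an unadjusted p under 0.05 in 5 types. These types come from the same mice and are not independent. In T cell-like cells it was 70.4 and 66.4 CPM in control, 152, 91.9 and 113 CPM in HFD+F+CCl4 and 80.4, 64.4 and 86.1 CPM in WD+F+CCl4, with a change of 0.81 ± 0.217 in HFD+F+CCl4 (adjusted p = 0.0693). HFD+F+CCl4 replicate 1 was the highest of its group here, and without it the change was 0.64 (adjusted p = 0.0853). DESeq2 called this change (0.79, adjusted p = 0.038). In WD+F+CCl4 the changes of Smad7 lay between -0.07 and 0.44.

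Tgfbi was called in B cell-like cells, where its median over all mice was 22.3 CPM, against 752 CPM in stellate-like, 708 CPM in macrophage-like and 636 CPM in classical monocyte-like cells. Stellate-like, macrophage-like and patrolling monocyte-like cells had no test against control. It was 5.2 and 16.5 CPM in the B cell-like cells of control mice, 58.2, 43.5 and 0 CPM in HFD+F+CCl4 and 17.5, 27.1 and 38.6 CPM in WD+F+CCl4, with changes of 2.72 ± 0.586 (adjusted p = 0.0253) and 2.16 ± 0.545 (adjusted p = 0.0330). HFD+F+CCl4 replicate 3, with 21 cells, overlapped with control. The macrophage markers in these cells summed to 683 and 781 CPM in control, 6524, 3699 and 1098 CPM in HFD+F+CCl4 and 1120, 1431 and 2379 CPM in WD+F+CCl4, in the same order over the HFD+F+CCl4 mice as Tgfbi, and their part in it was not tested. In classical monocyte-like cells Tgfbi was 465 and 559 CPM in control and 557 to 739.9 CPM in the NASH mice, with changes of 0.37 and 0.48 (adjusted p = 0.230 and 0.111).

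Over all kept cells of a mouse, 3 of the 10 genes were higher in both models: Tgfb1, Tgfbr1 and Tgfbi, where 18.9% of genes passed in HFD+F+CCl4 and 21.4% in WD+F+CCl4. Tgfb1 was 119.9 and 93.7 CPM in control, 408, 304 and 352 CPM in HFD+F+CCl4 and 336, 378 and 319.6 CPM in WD+F+CCl4, with changes of 1.82 ± 0.234 (adjusted p = 0.00322) and 1.86 ± 0.235 (adjusted p = 0.00246). Tgfbr1 was 47.0 and 48.1 CPM in control, 129, 122 and 119.9 CPM in HFD+F+CCl4 and 96.1, 116 and 89.4 CPM in WD+F+CCl4, with changes of 1.49 ± 0.177 (adjusted p = 0.00255) and 1.27 ± 0.176 (adjusted p = 0.00329). Tgfbi was 56.4 and 74.8 CPM in control, 321 to 484 CPM in HFD+F+CCl4 and 422 to 579.5 CPM in WD+F+CCl4, with changes of 2.77 ± 0.284 (adjusted p = 0.00154) and 3.13 ± 0.289 (adjusted p = 0.00106). In all 3 genes every NASH mouse was above both control mice, and these calls held when each mouse was left out.

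The cells behind these sums were not the same in the groups. They include the unnamed cells, 2540 and 2350 in the control mice and 854 to 1953 in the NASH mice. Macrophage-like cells, among the highest in all 3 genes, numbered 16 and 1 in the control mice and 910 to 2950 in the NASH mice. Tgfbr1 was called over all kept cells and in none of the types that could be compared with control, which leave out macrophage-like cells. Over all kept cells, more cells of a type and more RNA per cell cannot be told apart. Bmp2 over all kept cells was 60.7 and 98.6 CPM in control, 101, 10.6 and 1.5 CPM in HFD+F+CCl4 and 0.7, 2.2 and 126 CPM in WD+F+CCl4, for 448 and 90, then 1294, 128 and 12, then 2, 5 and 1351 sinusoidal endothelial cell-like cells. Within each NASH model the mouse with the most of these cells had the highest Bmp2, and in control the mouse with fewer had the higher value.

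No difference between the 2 models passed in the 10 genes. None of 98 tests over 14 types passed, with 13 at an unadjusted p under 0.05, where 0.00718% of all tests passed: 0% in 12 types and over all kept cells, 0.0135% in vascular endothelial cell-like cells and 0.106% in B cell-like cells. Tgfb1 changed by -0.34 to 0.87 between them, with a median of -0.03. The change of Smad7 from HFD+F+CCl4 to WD+F+CCl4 was negative in 14 of 14 types, between -1.11 and -0.05, and did not pass (lowest adjusted p = 0.327). The types come from the same mice, so their agreement is not that of independent results.

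Other genes of the pathway were taken from 6 lists and tested in the same types. Of 58 tests of genes for latency and activation, 7 were higher and 0 lower in HFD+F+CCl4, and of 50 tests 6 were higher and 0 lower in WD+F+CCl4, or 12.1% and 12% of the tests, where 3.23% and 5.85% of all tests in these types passed. Itgb5, which pairs with the alpha v integrin chain, made up 4 of the 7 and 4 of the 6. In sinusoidal endothelial cell-like cells Itgb5 was 6.1 and 7.6 CPM in control and 79.2 and 52.8 CPM in HFD+F+CCl4 (change 3.42, adjusted p = 0.00644), and in classical monocyte-like cells it was 44.9 and 31.3 CPM in control, 116 to 183 CPM in HFD+F+CCl4 and 131 to 214 CPM in WD+F+CCl4 (changes 1.80 and 2.05). It was also higher in type 1 dendritic cell-like cells (2.82 and 3.14) and T cell-like cells (2.82 and 1.94) and, in WD+F+CCl4, in type 2 dendritic cell-like cells (2.48). Itgav, the alpha v chain itself, was higher in classical monocyte-like cells (0.95 and 0.89) and in T cell-like cells of HFD+F+CCl4 (1.57). Itgb8 was higher in T cell-like cells of HFD+F+CCl4 (2.63) and Itgb1 in classical monocyte-like cells of WD+F+CCl4 (0.72). The macrophage marker sums given above for T and endothelial cells apply to these values too, and no such sums are given for the monocyte and dendritic cells. The types come from the same mice, so calls of 1 gene in several types are not independent.

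Among transcriptional targets, 4 tests of 64 were higher and 2 lower in HFD+F+CCl4, and 3 of 54 higher and 2 lower in WD+F+CCl4, or 9.38% and 9.26%, beside 3.23% and 5.85% of all tests. Ccn2, a matricellular protein gene induced by TGF-beta and by YAP, had the largest change: 10.7 and 7.6 CPM in the sinusoidal endothelial cell-like cells of control mice and 355 and 277 CPM in HFD+F+CCl4, a change of 4.96 ± 0.451 (adjusted p = 0.000197), with 374 CPM in the WD+F+CCl4 mouse. Id3 was higher in classical monocyte-like cells (1.62 and 1.14) and plasmacytoid dendritic cell-like cells (1.14 and 1.49), whereas Id2 was lower in plasmacytoid dendritic cell-like cells (-2.10 and -2.65) and in B cell-like cells (-1.75 and -2.55). Id2 and Id3 encode inhibitors of basic helix-loop-helix factors, and they moved in opposite directions in plasmacytoid dendritic cell-like cells. Bhlhe40 was higher in classical monocyte-like cells (2.23 and 1.67).

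Of SMADs and their regulators, 3 of 134 tests were higher and 1 lower in HFD+F+CCl4, and 3 of 118 higher and 2 lower in WD+F+CCl4. These are 2.99% and 4.24% of the tests, under the 3.23% and 5.85% of all tests that passed, so the list as a whole does not stand out and its calls are given as single genes. Skil, a SMAD corepressor, was the gene higher in HFD+F+CCl4, in classical monocyte-like cells (0.92), plasmacytoid dendritic cell-like cells (1.19) and T cell-like cells (0.97). Pmepa1, which encodes a membrane protein that holds back SMAD activation, was the gene higher in WD+F+CCl4, in cholangiocyte-like cells (2.07), plasmacytoid dendritic cell-like cells (0.90) and T cell-like cells (1.48). Smad3 was lower in type 1 dendritic cell-like cells of HFD+F+CCl4 (-2.51), where its level was low, at a mean log2 CPM of at most 3. Zfyve9, a SMAD anchor, was lower in classical monocyte-like cells of WD+F+CCl4 (-0.72) and Smad5 in their T cell-like cells (-1.24).

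Of the further ligands, 1 of 14 tests was higher and 2 lower in HFD+F+CCl4, and 1 of 11 was higher and 0 lower in WD+F+CCl4. These are 21.4% and 9.09% of few tests, beside 3.23% and 5.85% of all tests. Inhbb, the activin beta B chain, was higher in sinusoidal endothelial cell-like cells of HFD+F+CCl4, at 123 and 125 CPM against 49.1 and 30.4 CPM (change 1.48, adjusted p = 0.0404). Gdf11 was lower in T cell-like (-1.03) and NK cell-like cells (-2.42) of that model. Lefty1 was higher in plasmacytoid dendritic cell-like cells of WD+F+CCl4 (0.94). Of the further receptors none of 49 tests passed in HFD+F+CCl4 and 1 of 42 in WD+F+CCl4, Bmpr2 in T cell-like cells (-1.37). These are 0% and 2.38%, under the 3.23% and 5.85% of all tests, so the single call does not make this list stand out. None of 19 and 15 tests of extracellular inhibitors passed, beside the same shares of all tests.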

How the data were processed

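Liver cells of 8 mice were measured by droplet single-cell RNA-seq, with 1 library per mouse. The authors deposited UMI counts per gene and barcode for each library, made with Cell Ranger (4.0.0 in the file headers). The submitters' processing notes name bcl2fastq 2.20 and the builds GRCm38, GRCh38 and mm10, without saying which step used which. Nothing says whether the counting used strand.

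A barcode was kept if it had over 500 genes and its mitochondrial UMIs made up less than 25%. Cells were clustered (2000 variable genes, 30 components, 20 neighbours, Leiden resolution 1.0; scikit-learn 1.9.0, leidenalg 0.10.2) without the 10 genes and the pathway lists. Clusters took a name from marker lists where at least 3 markers were detected and at least 2 were among the 10 leading genes. These naming thresholds and the resolution were set after the data were seen. Doublets were scored and kept in the main results, and 6824 cells of highest score were left out as an alternative.

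UMI counts were summed per mouse and type, for mice with at least 20 cells, and compared with edgeR 4.0.16 (TMM, filterByExpr with a minimum of 10, quasi-likelihood test, all groups in 1 fit), with Benjamini-Hochberg adjustment over all genes tested and a threshold of 0.05. The two-sided permutation tests between types were exact, with a test of the absolute difference added after the data were seen. The 10 genes are all named. Pathway genes were named where they passed. The test was checked on simulated data. Alternatives were other size factors, no filter on low counts, DESeq2 1.42.0, a replicate block, other cell filters, doublets removed, names by cell and leaving out each mouse. The genes and lists were chosen with earlier results of these data known. Each mouse is a separate animal. Intervals on UMI ratios cover counting error only. R was 4.3.3 and Python 3.11.15.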

Additional observations from a re-analysis of the deposited data

How the results depend on the processing

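No call changed direction under any alternative. Of the 21 calls against control, 15 lay within a cell type and 6 over all kept cells, and 10 held in every alternative that kept all mice. The 6 over all kept cells (Tgfb1, Tgfbr1 and Tgfbi in both models) also held when each mouse was left out. Calls of the 10 genes within cell types numbered 8 in HFD+F+CCl4, 7 in WD+F+CCl4 and 0 between the models. With each cell named by its own markers they were 15 and 17, with all genes of at least 1 count 21, 16 and 3, and with cells of more than 1000 genes the WD+F+CCl4 count was 3. Leaving out 1 mouse gave 3 to 6, 1 to 10 and 0 to 2. The sample labels do not say that replicate numbers pair the mice. Over all kept cells, deviations of same-numbered mice from their group means correlated at -0.651 to 0.0917. The deviations of the 2 control mice mirror each other by construction, so pairs with a control mouse cannot decide whether the numbers pair mice. Between the NASH models same-numbered mice correlated at -0.526, 0.0183 and -0.651, and different-numbered mice at -0.508 to 0.66. The deviations within a model sum to 0 by construction, so these values do not decide it either. With a replicate block the WD+F+CCl4 count was 4, and 8 of the 21 calls were lost. Genes called in all, 2849 in HFD+F+CCl4, 4567 in WD+F+CCl4 and 10 between the models, became 6947, 8980 and 25 with names by cell, 7564, 9565 and 2532 with all genes of at least 1 count, 1414, 2794 and 144 with the block, and 1344, 2342 and 4 with cells of more than 1000 genes. Between the models DESeq2 called 216, library size alone 19, the removal of doublets 16 and the 2 groups alone 5. Leaving out 1 mouse gave 1131 to 2375, 1780 to 4294 and 5 to 587. Over all kept cells 3730 and 4227 genes became 1279 and 1722 with the block, and 2314 in HFD+F+CCl4 with the 2 groups alone. Library size alone moved the median change of all genes there from -0.01 to -0.11 in HFD+F+CCl4 and from -0.06 to -0.24 in WD+F+CCl4. The median level of Tgfb2 in vascular endothelial cell-like cells was 84.1 CPM with names by cell and 131.9 CPM at the higher resolution, that of Tgfb3 in stellate-like cells 10.4 CPM and of Tgfbr2 in vascular endothelial cell-like cells 278.0 CPM with names by cell, and that of Tgfbr3 in sinusoidal endothelial cell-like cells 216.4 CPM without doublets. The cause of these shifts was not tested. The 2 control mice, 1 of them shallow, limit every comparison with control.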
